A study of Arabidopsis thaliana with 8 samples.

Results

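Watered plants overexpressing VaWRKY14 were compared with watered wild-type plants of Arabidopsis thaliana by RNA sequencing, using 4 of the 8 libraries of the series for the contrast. VaWRKY14 is a grapevine WRKY transcription factor. The plants were of the accession Columbia-0, 3 weeks old, potted in peat at 22 °C with 16 h of light and 8 h of dark, and had normal watering. The comparison set 2 libraries of wild type (WT) against 2 of transgenic plants (OE). The remaining libraries, 2 of WT and 2 of OE after 5 days without water, entered the same fit for the estimate of spread and are named where an effect is set beside its value under drought. The labels call the OE material a mixture of transgenic plants and name neither the promoter nor the lines. They do not say that the libraries of a group came from separate cultures, so the p-values measure the spread between these libraries, which may be technical. The first droughted OE library carries VaWRKY15 in its genotype label and VaWRKY14 in its title and source, and was kept as OE. The transgene was not analysed here.

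WRKY factors are plant DNA-binding proteins that recognise the W-box, with the core TTGAC, and many act in defence, senescence and water stress. The cold-regulated (COR) genes are a classic output of another family, the CBF/DREB factors, which bind the CRT/DRE element with the core CCGAC. Cold, salt and drying induce many COR genes, and abscisic acid (ABA) acts on part of them through factors that bind the ABRE core, ACGTG. Many of their products are hydrophilic proteins that protect membranes and enzymes when cells lose water.

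The watered libraries held 10871061 and 11378571 expected counts (WT) and 11211698 and 11325963 (OE), which puts 3 counts at 0.289 to 0.313 CPM, where CPM is the count of a gene relative to the TMM-scaled size of its library. The biological coefficient of variation was 10.2%. The libraries of each pair were not equally alike. Among 15256 genes with at least 5 CPM, 104 were at least 2-fold higher in the first WT library than in the second and 10 the other way, while 9 and 59 were so in the first and second OE libraries. On the second principal component, with 15.2% of the variance, the first WT library stood at 41.43, the second at 6.35, and the OE libraries at -24.77 and -13.95. The tissue label is the whole plant. Leaf markers were abundant, with RBCS1A, a small subunit of Rubisco, at 13270 to 19270 CPM. Of 12 root markers only PYK10 and SHR had enough counts to be tested. CASP1 and CASP2, which build the root endodermal barrier, had 0 counts in each watered library, and the root-hair genes EXPA7, EXPA18 and COBL9 were listed in no library. Seed storage markers summed to at most 0.0975 CPM.

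In watered plants 57 genes rose and 18 fell in OE at an adjusted p under 0.05 (edgeR quasi-likelihood test, Benjamini-Hochberg adjustment), which is 0.296% and 0.0935% (together 0.389%) of the 19259 genes tested. Genes of the cold and dehydration response and 3 xyloglucan-remodelling enzymes were among those that rose. Those that fell included the jasmonate-responsive lectin gene MBP1, the indole glucosinolate gene CYP79B2 and the cell wall gene EXT3. Of the genes that rose, 16 changed at least 2-fold, and of those that fell, 6 did. In all 75 the OE libraries lay on one side of both WT libraries, a pattern seen in 21.7% of tested genes with OE above and 18.9% with OE below, or 40.6% in all. At an unadjusted p under 0.05, 1154 genes were higher and 815 lower, which is 5.99% and 4.23%. In bulk tissue, fewer cells of a type and less RNA per cell cannot be told apart.

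The number of calls depended on single libraries. It was 19 without the first watered WT library, 438 without the second, 16 without the first watered OE library, 25 and 26 without either of the droughted WT libraries in turn, and 21 when the 4 watered libraries were fitted alone. The sign of all 75 genes was the same in each of the 8 fits that left out 1 library. The call held in all 8 for 4 genes that rose, RD29A, LpxC2, AT1G24996 and AT5G03120, and for 2 that fell, MRD1 and HEI10. Each of the other 69 lost its call in at least 1 of these fits.

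**Figure D1:**
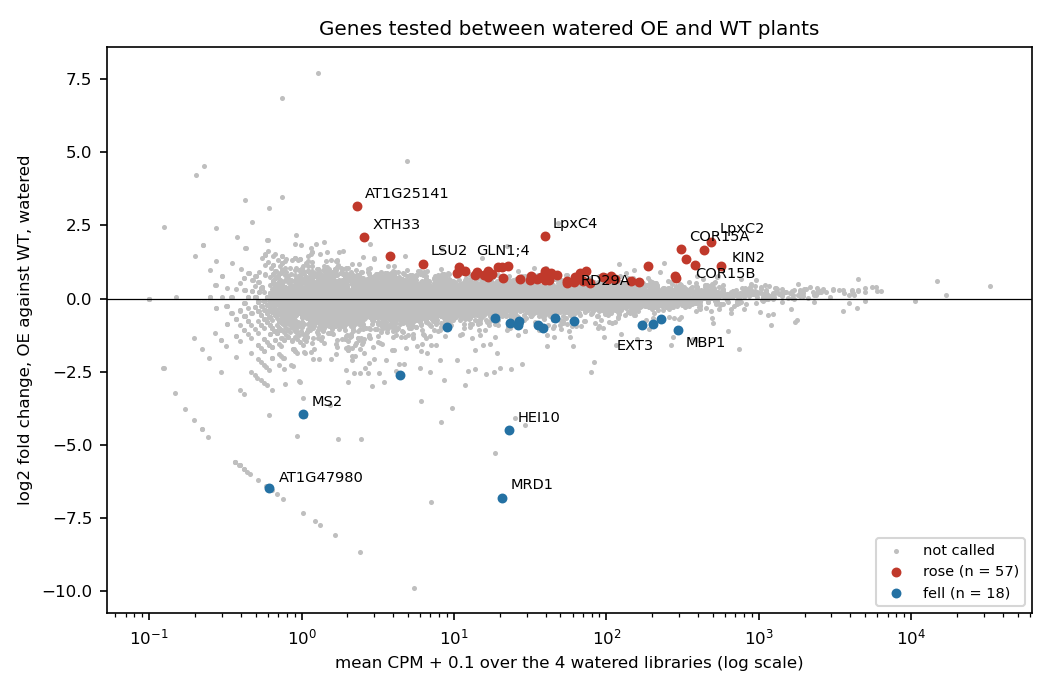
Log2 fold change of OE against WT in watered plants for each gene tested, against its mean CPM over the 4 watered libraries plus 0.1 on a log scale. The 57 genes that rose are in red and the 18 that fell in blue; most called genes changed by less than 2-fold, and MRD1 and HEI10 lie far below the rest of the well-counted genes.

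Cold and dehydration genes were higher in OE as a list. Of 28 tested members of a list of 30, 6 rose and none fell, which is 21.4% against 0.296% of all genes, and DESeq2 called 8 as higher (0.602% of all genes were higher by DESeq2 and 0.286% lower). The OE libraries lay above both WT libraries in 17 of the 28 (60.7% against 21.7% of all genes) and below in 1. The log2 fold change was above 0 in 18 of the 28 and below in 10. Its median was 0.35, against 0 over all genes, and ranged from 0.28 to 0.55 in fits without 1 library. Summed over the list, the level was 3946 and 3549 CPM in WT and 6420 and 5684 CPM in OE. The count of members that rose was 1 without the first watered WT library, when only RD29A remained called, and 2 without the first watered OE library.

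The 250 bases before the annotated start of 3 of these genes are shown because they carry the CRT/DRE core, given in capitals in either orientation (CCGAC or GTCGG). They were read from RefSeq's TAIR10.1 assembly at chr2:17712331-17712580 (COR15A, minus strand), chr5:21240467-21240716 (RD29A, plus strand) and chr2:6949601-6949850 (COR413-PM1, plus strand), each 5′ to 3′ on the strand of its gene. 
COR15A: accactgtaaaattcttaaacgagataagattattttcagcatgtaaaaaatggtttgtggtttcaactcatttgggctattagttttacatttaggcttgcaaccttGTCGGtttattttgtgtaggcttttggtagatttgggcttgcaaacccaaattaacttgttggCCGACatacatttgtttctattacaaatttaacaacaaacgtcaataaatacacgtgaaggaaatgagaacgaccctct
RD29A: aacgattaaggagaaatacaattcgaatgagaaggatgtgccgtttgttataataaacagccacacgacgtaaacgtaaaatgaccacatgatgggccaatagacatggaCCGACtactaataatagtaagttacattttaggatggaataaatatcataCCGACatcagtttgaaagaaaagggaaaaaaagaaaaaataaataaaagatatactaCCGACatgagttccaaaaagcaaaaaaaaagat
COR413-PM1: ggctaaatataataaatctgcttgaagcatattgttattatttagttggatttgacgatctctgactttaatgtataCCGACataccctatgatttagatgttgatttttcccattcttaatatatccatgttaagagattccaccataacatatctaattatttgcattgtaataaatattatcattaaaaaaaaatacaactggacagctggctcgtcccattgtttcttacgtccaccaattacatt

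Of the 6 list members that rose, 3 held the core CCGAC in this window, which is 50% against 13% of the windows of tested genes and 28.6% of the 28 list members tested. Over all genes that rose, 11 of 56 windows held it (19.6%). The window of COR15B, which lacks the core, overlaps the neighbouring gene COR15A. The ABRE core ACGTG was in 3 of the 6, which is the same 50% as in the 28 list members (14), and in 19.6% of the windows of genes that rose, against 23.2% of tested genes. The W-box core TTGAC was in 2 of the 6 (33.3%) and in 22 of 56 windows of genes that rose (39.3%), against 44.5% of tested genes. The forms TTGACC and TTGACT, both of which contain TTGAC, were in 5.36% and 14.3% of the windows of genes that rose and in 12% and 18.5% of those of tested genes. In the 18 windows of genes that fell the shares were higher, at 55.6% (10 windows) for TTGAC, 16.7% for TTGACC and 38.9% for TTGACT. The higher shares there were not limited to the W-box. ACGTG was in 38.9% (7 windows), against 23.2% of tested genes, and CCGAC in 16.7%, against 13%. The G-box CACGTG, which contains ACGTG, was in 22.2%, against 7.26%, and in 7.14% of the windows of genes that rose. Both strands were searched. A match describes the letters of the window and no binding was measured.

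COR15A (AT2G42540) encodes a protein of the chloroplast stroma that protects membranes in freezing. It stood at 147 and 146 CPM in the WT libraries and at 596 and 350 CPM in OE. Both OE libraries were above WT, and they differed from each other more than the WT libraries did. The log2 fold change was 1.69 ± 0.22 (SE, n = 2 per group; edgeR adjusted p = 0.0186), and the adjusted p was 0.141 when the first watered WT library was left out, and 0.0722 or 0.0696 when 1 of the droughted WT libraries was. Its neighbour and close relative COR15B (AT2G42530) had 185 and 191 CPM in WT and 563 and 399 CPM in OE. The higher value was again in the first OE library. COR15B rose by 1.35 ± 0.20 (edgeR adjusted p = 0.0243; 0.156 without the first watered WT library and 0.0718 without the first watered OE library). How reads were divided between close copies, such as this pair or KIN1 and KIN2, is not given in the sources used here.

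KIN2 (AT5G15970), a small hydrophilic protein induced by cold and ABA, had 336 and 376 CPM in WT and 865 and 686 CPM in OE. The groups did not overlap, and KIN2 rose by 1.12 ± 0.18 (edgeR adjusted p = 0.0169; 0.102 without the first watered WT library and 0.0953 without the first watered OE library). COR413IM1 (AT1G29395), a protein of the chloroplast inner envelope, had 231 and 244 CPM in WT and 596 and 448 CPM in OE. It rose by 1.14 ± 0.17 (edgeR adjusted p = 0.0118; 0.0703 and 0.0718 without the same libraries), and its first OE library was the higher, as for COR15A, COR15B and KIN2. COR413-PM1 (AT2G15970), a related protein of the plasma membrane, had 223 and 217 CPM in WT and 351 and 361 CPM in OE, so that here the OE libraries were alike. It rose by 0.69 ± 0.12 (edgeR adjusted p = 0.021), with an adjusted p of 0.102 without the first watered WT library, 0.084 without the first watered OE library and 0.0763 without the second.

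RD29A (AT5G52310), a reporter gene for both cold and water stress, had 127 and 108 CPM in WT and 269 and 241 CPM in OE. It rose by 1.12 ± 0.13 (edgeR adjusted p = 0.00101), and the highest adjusted p without 1 library was 0.0163. Its relative RD29B, which responds mainly to ABA, was near the floor of detection, between 0.0975 and 0.385 CPM, and was not tested.

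**Figure D2:**
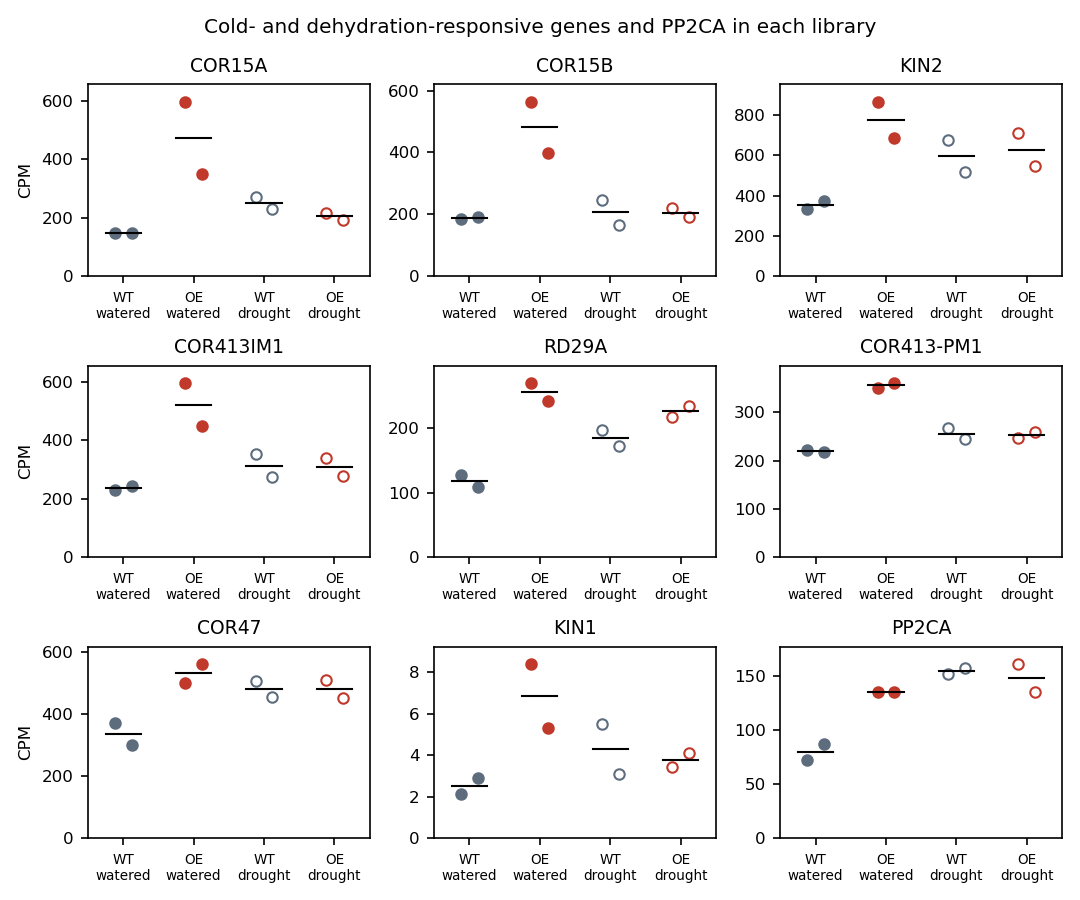
CPM of 9 genes in each of the 8 libraries; filled circles are watered and open circles droughted plants, grey is WT and red is OE, and the short line is the mean of the 2 libraries. In watered plants both OE points lie above both WT points in each panel; for COR15A the droughted WT libraries (270 and 230 CPM) lie between watered WT and watered OE.

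On the FPKM scale, which corrects for transcript length and so permits comparison between genes, KIN2 was the most abundant of the 6, at 450 ± 26.1 (SD, n = 2) in WT and 929 ± 194 in OE. RD29A was the least abundant, at 40.5 ± 5.55 in WT and 82.9 ± 10.2 in OE. COR413-PM1 and COR413IM1 stood at 221 ± 13.9 and 218 ± 3.75 FPKM in WT, above COR15A at 147 ± 1.53 and COR15B at 110 ± 0.078. In OE, COR413IM1 had 453 ± 111 FPKM and COR15A 438 ± 183, which do not differ beyond their spread, COR413-PM1 339 ± 4.61 and COR15B 266 ± 75.9.

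Other list members were higher without passing the test. KIN1, the close copy of KIN2 at far lower abundance, had 2.15 and 2.89 CPM in WT and 8.39 and 5.31 CPM in OE (log2 difference 1.44, edgeR adjusted p = 0.0773). The dehydrin gene COR47 had 371 and 300 CPM in WT and 501 and 562 CPM in OE (0.67, adjusted p = 0.0636 in edgeR). ERD10 and ERD14, also dehydrins, stood at 0.48 and 0.41, and ERD4 and LEA14 at 0.52 and 0.47. The ABA-responsive RAB18 and RD22 stood at 0.87 and 0.31, with edgeR adjusted p of 0.418 and 0.5. The lowest value was that of LTP4, a lipid transfer protein, at -1.34, from at most 0.293 CPM in any watered library. HB-12 and RD20, both induced by drying and ABA, stood at -0.73 and -0.82, and RD20 was uneven in WT (28 and 9.43 CPM). The list was chosen with earlier results of these libraries known, so its count is no independent evidence of direction.

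None of the 11 tested CBF and DREB factors, the regulators of these genes, was called by edgeR or DESeq2. At an unadjusted p under 0.05, 4 were higher (36.4% against 5.99% of all genes) and 0 lower. Their median log2 fold change was 0.70 (0.27 without the second watered OE library), with 8 above 0 and 3 below. CBF3 had 0.78 and 1.83 CPM in WT and 4.15 and 2.92 CPM in OE (1.43 ± 0.37, edgeR adjusted p = 0.133). CBF1 and CBF2 stood at 0.74 and 0.56, each at under 10 CPM. RAP2.1, a repressor that is itself a target of the CBF factors, had 4.29 and 4.43 CPM in WT and 8.49 and 8.02 CPM in OE (0.92 ± 0.21, edgeR adjusted p = 0.0744). DREB2A, the main drought-responsive member of the family, stood at -0.12.

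Among 24 tested genes of ABA perception and signalling, 1 rose and 1 fell (4.17% each, against 0.296% and 0.0935% of all genes). Higher at an unadjusted p under 0.05 were 5 (20.8% against 5.99% of all genes), and 1 was lower (4.17% against 4.23%). The median was 0.05, and -0.03 without the second watered WT library. PP2CA (AT3G11410), a phosphatase that represses ABA signalling and is induced by it, had 72.3 and 87.2 CPM in WT and 135 in each OE library. It rose by 0.76 ± 0.13 (edgeR adjusted p = 0.0189; 0.149 without the first watered WT library, and 0.0847 or 0.0576 without 1 of the watered OE libraries). EEL (AT2G41070), a bZIP factor known from ABA-regulated genes of the seed, had 11 and 12.4 CPM in WT and 5.92 and 6.15 CPM in OE. It fell by 0.96 ± 0.17 (edgeR adjusted p = 0.0287; at most 0.158 without 1 library), and DESeq2 did not call it. The related kinase and phosphatase genes SNRK2.6 and ABI1 stood at 0.57 and -0.14, uncalled. In ABA metabolism nothing passed the edgeR test among 10 genes, and DESeq2 called 0. Of the 10, 3 were higher (30% against 5.99% of all genes) and 1 lower (10% against 4.23%) at an unadjusted p under 0.05. NCED3, the rate-limiting step of ABA synthesis under drought, had 8.19 and 5.77 CPM in WT and 14.1 and 12.6 CPM in OE (0.94 ± 0.20, edgeR adjusted p = 0.06). BGLU18, which frees ABA from its glucose ester, had 1737 and 1395 CPM in WT and 634 and 1034 CPM in OE (-0.91 ± 0.22, adjusted p = 0.115 in edgeR).

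Jasmonate-responsive genes were lower as a group, with 1 call. All 15 tested genes of jasmonate output had a negative log2 fold change, with a median of -1.08, and in 12 the OE libraries lay below both WT libraries (80% against 18.9% of all genes). Of the 15, 1 fell by edgeR (6.67% against 0.0935% of all genes) and 3 by DESeq2. The groups' libraries were uneven here. The summed level was 3711 and 2067 CPM in WT and 1213 and 1127 CPM in OE, so the first WT library was the highest. Without it the median was -0.72, all 15 were still below 0 and 0 were called, and without the second WT library it was -1.5 with 5 called.

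MBP1 (AT1G52040), a myrosinase-binding lectin, had 443 and 354 CPM in WT and 171 and 205 CPM in OE. It fell by 1.08 ± 0.16 (edgeR adjusted p = 0.015; 0.0602 without the first watered WT library and 0.0963 without the first watered OE library). The defensin gene PDF1.2A had 1532 and 756 CPM in WT and 450 and 250 CPM in OE, and did not pass the test (-1.71 ± 0.56, edgeR adjusted p = 0.435). KTI1, a trypsin inhibitor, and NATA1, an acetyltransferase, had 82.8 and 225 CPM in the first WT library but 11.9 and 44.9 CPM in the second, and at most 3.02 and 24.5 CPM in OE. VSP1 and VSP2, the vegetative storage proteins, stood at -1.33 and -1.08, also uncalled.

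In jasmonate signalling, 15 of 16 genes were below 0, 11 without overlap of the libraries (68.8% against 18.9% of all genes), and the median was -0.39. Without the first watered WT library 12 were below 0 and the median was -0.20. None was called by edgeR, and DESeq2 called 2 as lower. Of the 16, 8 were lower (50% against 4.23% of all genes) and 0 higher at an unadjusted p under 0.05. JAZ2, a repressor that jasmonate induces, had 129 and 107 CPM in WT and 89.2 and 84.8 CPM in OE (-0.44 ± 0.12, edgeR adjusted p = 0.147). MYC2, the main activator, had 133 and 116 CPM in WT and 75.2 and 103 CPM in OE (-0.48 ± 0.14, edgeR adjusted p = 0.191). The receptor gene COI1 stood at -0.05. Of 17 genes of jasmonate synthesis and turnover, 12 were below 0 and edgeR called none (1 by DESeq2). Among the 17, 4 were lower (23.5% against 4.23% of all genes) and 0 higher at an unadjusted p under 0.05. LOX2, the plastid lipoxygenase that starts the pathway, had 2653 and 1840 CPM in WT and 1422 and 1265 CPM in OE (-0.74 ± 0.19, edgeR adjusted p = 0.123). LOX2 was the member that DESeq2 called (DESeq2 adjusted p = 0.00378). The median of the synthesis genes, -0.33, was -0.03 without the first watered WT library. Salicylic acid and defence genes had a median of -0.33 with 17 of 21 below 0 (-0.18 without the first watered WT library). EdgeR called none and DESeq2 called 1. Among the 21, 3 were lower (14.3% against 4.23% of all genes) and 0 higher at an unadjusted p under 0.05. PR1, the classic salicylic acid marker, had 91.6 CPM in the first WT library, 37.7 in the second, and 30.7 and 21.3 in OE.

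**Figure D3:**
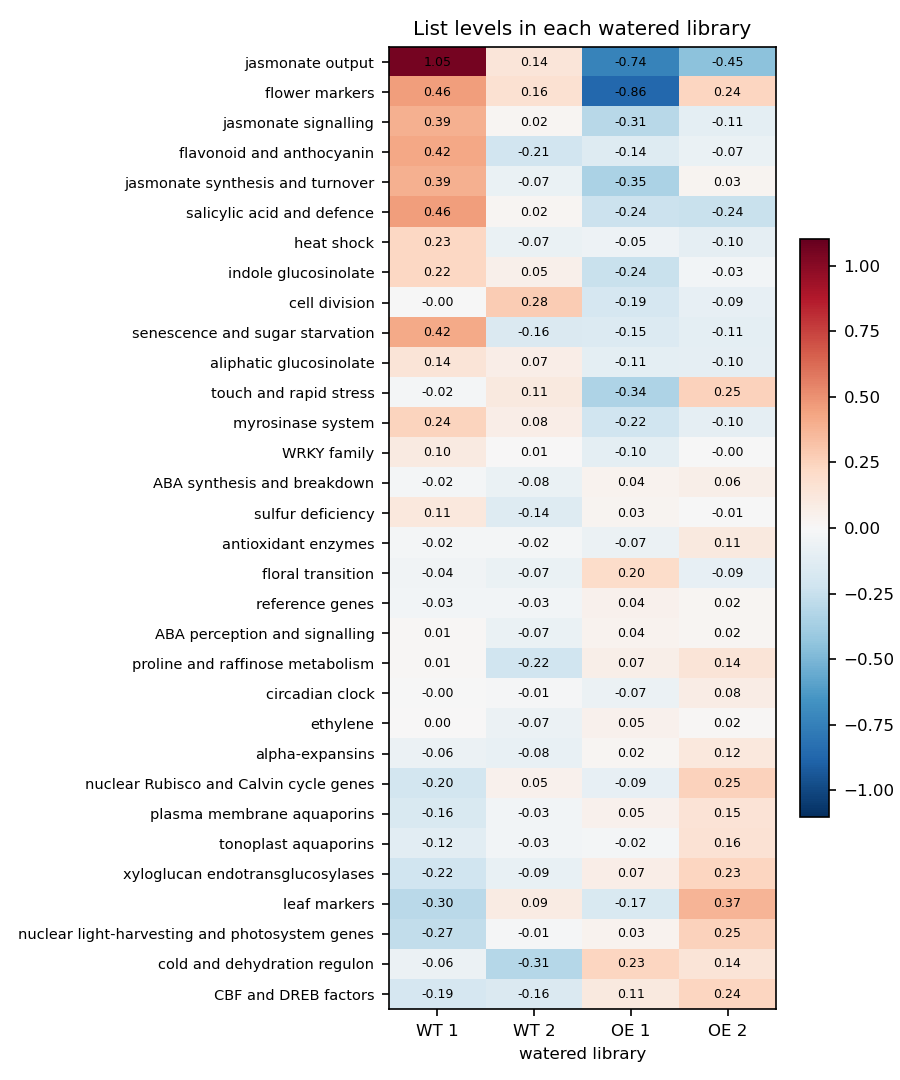
Mean log2(CPM + 1) of the tested members of each list in each watered library, minus the mean of the 4 libraries. Jasmonate output stands at 1.05 in the first WT library, 0.14 in the second, and -0.74 and -0.45 in OE; the cold and dehydration list stands at -0.06 and -0.31 in WT and 0.23 and 0.14 in OE.

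Defence metabolites and proteins stored in the endoplasmic reticulum (ER) also had members that fell. CYP79B2 (AT4G39950), which starts indole glucosinolate synthesis from tryptophan, had 57.2 and 55.5 CPM in WT and 31.4 and 39.2 CPM in OE (-0.68 ± 0.13, edgeR adjusted p = 0.0428). It was the only one of 9 tested members of that list to fall (11.1% against 0.0935% of all genes). Its twin CYP79B3 stood at -0.57 (adjusted p = 0.162 in edgeR). IGMT5 (AT1G76790), a methyltransferase of the same pathway, fell by 0.75 ± 0.14 (edgeR adjusted p = 0.036). MEB1 and TSA1 encode proteins of the ER body, a compartment of the Brassicaceae that stores beta-glucosidases. MEB1 had 37.3 and 31.5 CPM in WT and 16.7 and 20.2 CPM in OE, and TSA1 had 285 and 236 CPM in WT and 122 and 161 CPM in OE. They fell by 0.90 ± 0.15 and 0.89 ± 0.17 (edgeR adjusted p = 0.0189 and 0.0445). Of the other ER body genes looked up after these values were seen, none was called. NAI2 stood at -0.56, its regulator NAI1 at -0.61, MEB2 at -0.24 and PBP1 at -0.17, and the libraries of NAI1, MEB2 and PBP1 overlapped. BGLU18, the beta-glucosidase given above with ABA metabolism, was among those looked up and stood at -0.91, without overlap. The calls of CYP79B2, IGMT5, MEB1 and TSA1 were each lost without at least 1 library.

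Cell wall genes changed in both directions. Of 24 tested xyloglucan endotransglucosylase/hydrolases (XTH), enzymes that cut and rejoin the xyloglucan tethers of the wall, 3 rose and none fell (12.5% against 0.296%). XTH15 (AT4G14130) had 6.15 and 7.5 CPM in WT and 16.1 and 12.9 CPM in OE and rose by 1.09 ± 0.18 (edgeR adjusted p = 0.0189). XTH6 (AT5G65730) had 47.3 and 40.9 CPM in WT and 68.4 and 63.8 CPM in OE and rose by 0.58 ± 0.11 (edgeR adjusted p = 0.0426). XTH33 (AT1G10550) had 5 and 14 counts in WT and 40 and 39 in OE, so its OE level was 435% of WT (95% interval from counting error 261% to 761%; edgeR adjusted p = 0.0426). None of the 3 XTH genes was called without the first watered WT library or without the first watered OE library. Of the 8 fits without 1 library, XTH6 kept its call in 0 and XTH33 in 1. No XTH gene was called when the 4 watered libraries were fitted alone. DESeq2 did not call XTH33 (adjusted p = 0.0512). Of the 24, 18 were above 0 and 6 below, with a median of 0.27 (0.08 without the second watered OE library). XTH7, XTH30 and XTH8 stood at 0.82, 0.68 and 0.64, and XTH10 and XTH29 at -1.85 and -1.23, uncalled. In the other direction, EXT3 (AT1G21310), an extensin that forms the protein scaffold of the wall, had 252 and 195 CPM in WT and 104 and 135 CPM in OE. EXT3 fell by 0.91 ± 0.15 (edgeR adjusted p = 0.0173; at most 0.119 without 1 library). Of 12 plasma membrane aquaporins, 9 were above 0 and none was called by edgeR (1 by DESeq2). Among the 12, 4 were higher (33.3% against 5.99% of all genes) and 0 lower at an unadjusted p under 0.05.

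**Figure D4:**
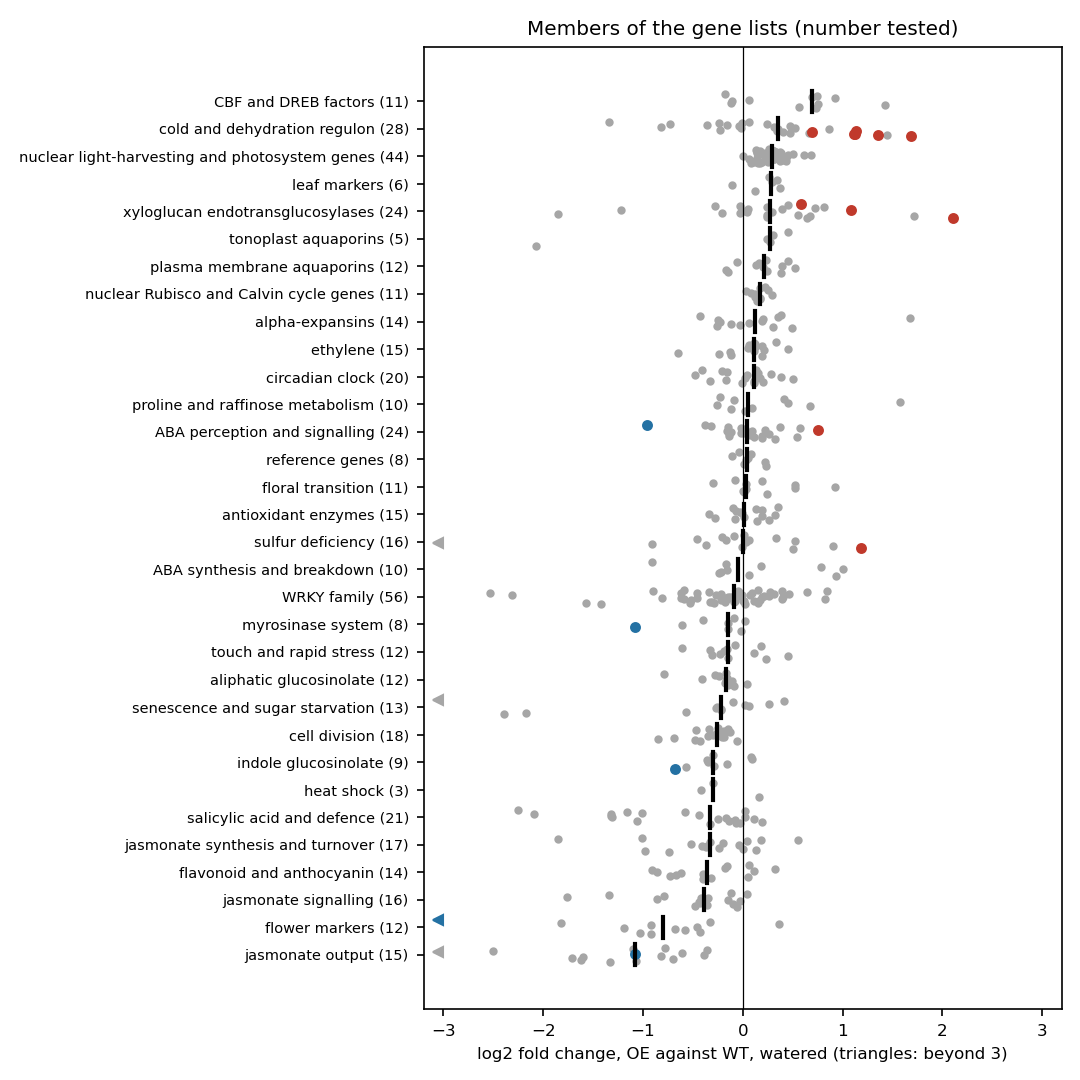
Log2 fold change of OE against WT in watered plants for each tested member of each list, with the number tested in brackets. Red points rose, blue points fell, grey points were not called, and the black bar is the list median, which runs from -1.08 for jasmonate output to 0.70 for the CBF and DREB factors.

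Nuclear light-harvesting and photosystem genes were slightly higher, without a call by edgeR. All 44 tested light-harvesting and photosystem genes were above 0, with a median of 0.29, and the libraries did not overlap in 26 (59.1% against 21.7% of all genes). None was called by edgeR and 1 by DESeq2. Of the 44, 6 were higher (13.6% against 5.99% of all genes) and 0 lower at an unadjusted p under 0.05. LHCB4.2, a minor antenna protein of photosystem II, had 1390 and 1593 CPM in WT and 2136 and 2087 CPM in OE (0.50 ± 0.18, edgeR adjusted p = 0.331). Without the first watered WT library 36 of the 44 were above 0 and the median was 0.15. The 11 tested nuclear Rubisco and Calvin cycle genes were less clear. All 11 were above 0 with a median of 0.17, which was -0.04 without the second watered OE library. The OE libraries lay above both WT libraries in 1 of them (9.09% against 21.7% of all genes). All 18 cell division genes were below 0, with a median of -0.26, and edgeR and DESeq2 called none. Of the 18, 4 were lower (22.2% against 4.23% of all genes) and 0 higher at an unadjusted p under 0.05. Among these, CYCA1;1, a mitotic cyclin, had 9.95 and 12 CPM in WT and 7.9 and 5.73 CPM in OE. Without the second watered WT library 14 of the 18 were below 0 and the median was -0.11.

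The 56 tested Arabidopsis WRKY genes included no call by edgeR, with 21 above 0 and 35 below and a median of -0.09. At an unadjusted p under 0.05, 3 were higher (5.36% against 5.99% of all genes) and 7 lower (12.5% against 4.23%). DESeq2 called 1 as lower. WRKY11, a negative regulator of basal defence, had 53.7 and 55.9 CPM in WT and 71.2 and 79.4 CPM in OE (0.46 ± 0.11, edgeR adjusted p = 0.0884). WRKY45, which acts in phosphate uptake, had 26 and 15.8 CPM in WT and 12.3 and 11.5 CPM in OE (-0.81 ± 0.21, edgeR adjusted p = 0.157). In the sulfur deficiency list 1 of 16 genes rose (6.25% against 0.296% of all genes). LSU2 (AT5G24660), one of a family of small proteins induced when sulfur is short, had 3.02 and 4.43 CPM in WT and 8.49 and 8.54 CPM in OE (1.19 ± 0.21, edgeR adjusted p = 0.0246; 0.196 without the first watered WT library). Its relatives LSU1, LSU3 and LSU4 stood at 0.50, -0.01 and 0.90, each under 5 CPM.

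MS2 (AT3G11980), which makes fatty alcohols for the pollen wall, was the only one of 12 tested flower markers to fall (8.33% against 0.0935% of all genes). It had 24 and 12 counts in WT and 0 and 2 in OE, or 5.81% of that in WT (exact 95% interval, counting error only, 0.678% to 22.6%; edgeR adjusted p = 0.0463). The flower markers as a whole were low in the first OE library. Their summed level was 37.7 and 29 CPM in WT and 8.59 and 33.6 CPM in OE, and the anther gene A6 had 0 counts in the first OE library and 4.79 CPM in the second. Of the 12, 11 were below 0 with a median of -0.80, and without the first OE library the median was -0.12 and MS2 had an edgeR adjusted p of 0.244.

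Other genes that rose were named for their size of change or known role after their values were seen, and belong to no list. ABCG22 (AT5G06530), an ABC transporter needed for normal stomatal closure, had 41.8 and 59.1 CPM in WT and 102 and 91.7 CPM in OE (0.94 ± 0.16, edgeR adjusted p = 0.0287). SHY2 (AT1G04240), the auxin-response repressor IAA3, had 22.5 and 31.5 CPM in WT and 50.7 and 52.6 CPM in OE (0.94 ± 0.14, edgeR adjusted p = 0.0124). The peptide hormone genes RALF23 and RALFL22, whose family raises the pH of the cell wall and slows growth, rose by 0.72 and 0.89. CIPK15, a kinase of calcium signalling, rose by 0.67, and the phototropism gene PKS2 by 0.76. GLN1;4, a cytosolic glutamine synthetase, had 14.7 and 11.5 CPM in WT and 26.7 and 28.8 CPM in OE (1.08 ± 0.17, edgeR adjusted p = 0.0173). Without 1 library the adjusted p reached 0.163 for ABCG22, 0.0723 for SHY2 and 0.0747 for GLN1;4. AT5G03120, an uncharacterized protein, had 15 and 13.5 CPM in WT and 29.5 and 32.1 CPM in OE. It rose by 1.11 ± 0.14 (edgeR adjusted p = 0.0034) and kept its call without any 1 library. AT5G25240, annotated as a stress induced protein, rose by 1.09 ± 0.15 (edgeR adjusted p = 0.00729).

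Other genes that fell are less well known. AT2G43580, of a chitinase family, had 102 and 51 counts in WT and 13 and 11 in OE, or 16.4% of WT (95% interval from counting error 10.2% to 25.4%; edgeR adjusted p = 0.0162). AT2G39420 and AT3G51450, annotated as a hydrolase and a calcium-dependent phosphotriesterase, fell by 0.89 and 0.99. AT1G47980, a desiccation-like protein, had 13 and 8 counts in WT and 0 in both OE libraries (edgeR adjusted p = 0.0246). The exact 95% interval of its OE level, counting error only, was 0% to 20.1% of WT. With OE set at a floor of 3 counts over the group it was 6.69-fold lower. AT3G28270, a putative membrane protein, had 30.4 and 29 CPM in WT and 17.2 and 15.8 CPM in OE, and fell by 0.85 ± 0.15 (edgeR adjusted p = 0.0252; at most 0.121 without 1 library).

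The 4 genes with the smallest adjusted p lie at 2 places on chromosome 1. MRD1 (AT1G53480, chr1:19963047-19964712, minus strand) and HEI10 (AT1G53490, chr1:19963267-19966952, plus strand) overlap on opposite strands. MRD1 is named for its lower level in a methionine-accumulating mutant, and HEI10 promotes meiotic crossovers. MRD1 had 426 and 420 counts in WT and 6 and 1 in OE, or 0.866% of that in WT (exact 95% interval 0.347% to 1.79%), and HEI10 had 44.4 and 43.8 CPM in WT and 1.78 and 2.08 CPM in OE. Use of strand in counting is not stated, so how reads from the stretch shared by the 2 genes were assigned is not known. Each gene also has bases outside that stretch.

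At the other place, between MAP70-2 and ASB1, 12 listed genes summed to 459 and 454 CPM in WT and 1700 and 1531 CPM in OE. The droughted libraries gave 549 and 550 CPM in WT and 1625 and 1571 CPM in OE. LpxC2 and LpxC4 encode deacetylases of a lipid A-like pathway in mitochondria, and rose by 1.94 ± 0.14 and 2.14 ± 0.26 (edgeR adjusted p = 2.4e-06 and 0.0267), while AT1G24996 rose by 1.68 ± 0.13 (edgeR adjusted p = 4.8e-06). AT1G25141 had 2 and 7 counts in WT and 40 and 38 in OE. Because genes of the stretch are near copies of each other, the share of reads given to each is uncertain.

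Few of the genes called in watered plants passed the test after 5 days without water. The droughted comparison uses 4 other libraries, and edgeR called 31 genes higher and 26 lower there (0.161% and 0.135% of those tested). Of the 57 genes that rose in watered OE, 4 also rose under drought, all in the chromosome 1 stretch (LpxC2, LpxC4, AT1G24996 and AT1G25141), and 24 had the same sign. Of the 18 that fell, 3 also fell (MRD1, HEI10 and AT3G28270) and 11 had the same sign. The median log2 fold change of the genes that rose was 0.81 in watered and -0.02 in droughted plants, and of those that fell -0.90 and -0.14. The watered values chose these genes, so the smaller drought values are a description.

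The 6 cold and dehydration genes that rose averaged higher in watered OE than in droughted WT, a contrast that was not tested. For KIN2 the libraries were close, with 865 and 686 CPM in watered OE and 676 and 519 CPM in droughted WT. COR15A averaged 473 CPM in watered OE, 250 in droughted WT and 205 in droughted OE. RD29A averaged 255, 185 and 225 CPM in the same order, and PP2CA 135, 154 and 148 CPM. The OE effect on COR15A differed between conditions by 1.98 on the log2 scale, at an edgeR adjusted p of 0.0502, and that on RD29A by 0.83, at 0.0703. The difference passed the edgeR test for 31 genes of all those tested (0.161%; 0.0623% higher and 0.0987% lower in watered plants) and for 9 of the 75, 6 that rose and 3 that fell. Among the 6 was GLN1;4. It had 186 and 187 CPM in droughted WT and 137 and 101 CPM in droughted OE, so OE was above WT in watered plants and below it in droughted plants (difference 1.73 ± 0.22, edgeR adjusted p = 0.00866). The drought effect of GLN1;4 by itself was not called (-0.65, edgeR adjusted p = 0.0802). EXT3 showed the opposite order, with 95.7 and 89.1 CPM in droughted WT and 126 and 119 CPM in droughted OE (difference -1.31 ± 0.21, edgeR adjusted p = 0.0286). Its drought effect was not called either (0.41, edgeR adjusted p = 0.379).

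**Figure D5:**
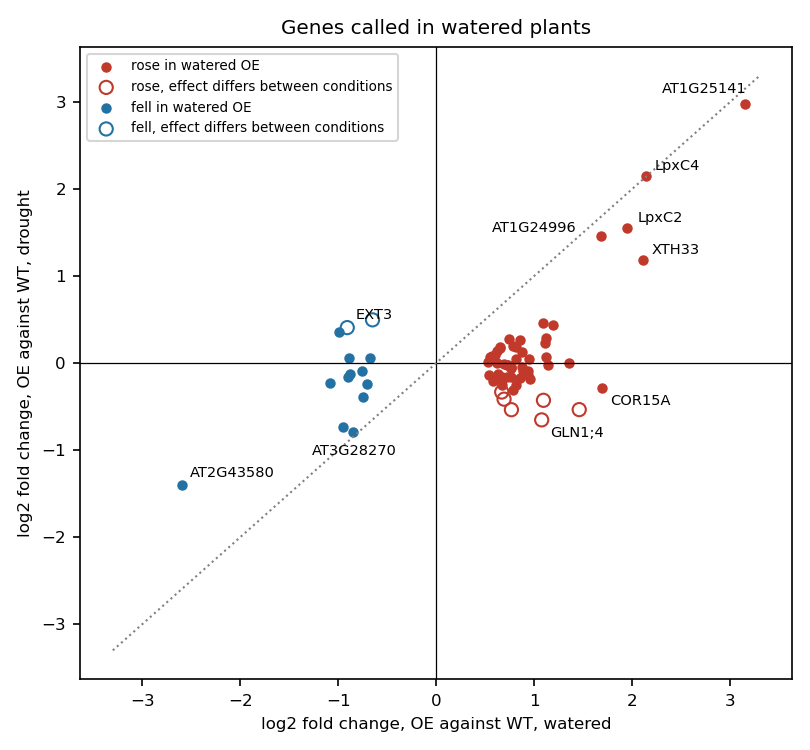
Log2 fold change of OE against WT under drought against that in watered plants for the genes called in watered plants; 4 genes beyond the frame are left out. Open circles mark genes whose effect differs between conditions, and the dotted line marks equal effects; apart from the chromosome 1 genes most points lie near 0 on the drought axis.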

How the data were processed

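For each library the authors deposited a table of genes with their expected counts and FPKM values, per the file headers. The expected counts are not normalized and the FPKM values, as deposited, are scaled for length and depth. The submitters' processing notes name STAR, HISAT2 2.0.5, featureCounts, edgeR and the build TAIR10, without roles. Tables list values above 0, and a missing gene was given a count of 0.

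Counts were rounded and fitted with edgeR 4.0.16 under R 4.3.3: filterByExpr (minimum count 10), TMM, a robust quasi-likelihood fit of 8 libraries with 1 mean per group (4 residual degrees of freedom), two-sided tests, and calls at a Benjamini-Hochberg adjusted p under 0.05. The standard error is the log2 fold change divided by the root of F. The scripts were tested on simulated counts. FPKM served only to compare genes with each other. Symbols came from the TAIR10.1 annotation. Alternatives were RLE factors, DESeq2 1.42.0, no filter, a replicate block, the 4 watered libraries alone and leaving out each library. Intervals and floors cover counting error only; 3 counts is the floor.

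Members and lists were chosen with earlier results of these data known. Named were the 12 largest called changes per direction (mean of at least 5 CPM over the watered libraries, no overlap), up to 5 called genes per list or else 2 with the smallest p, and fixed markers. Some so chosen are given only in list counts, and other genes were named after their values were seen.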

Additional observations from a re-analysis of the deposited data

Results flagged for a closer look

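Of the 31 genes in which the effect of overexpression differed between watered and droughted plants by the edgeR test of the difference (adjusted p under 0.05), 10 are given here: 9 of the 75 called in watered plants, and WRKY53, a fixed marker. Each value is the watered minus the drought log2 fold change. It was 1.73 for GLN1;4 and 1.52 for AT5G25240, annotated as a stress induced protein. For AT1G23050, a hydroxyproline-rich glycoprotein, it was 1.3, for AT5G42200, a RING-type protein, 1.11, and for AT2G15880, a leucine-rich repeat protein, 1.0. AT3G59580, an RWP-RK family regulator, stood at 1.99, from 1.66 and 2.31 CPM in watered WT and 5.23 and 5.73 CPM in watered OE. In these 6, OE was above WT when watered and below it under drought, but edgeR called none of the 6 under drought.

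It was -1.31 for EXT3 and -1.15 for RLP36, a receptor-like protein, which had 23.4 and 22.1 CPM in watered WT, 14.3 and 14.7 CPM in watered OE, 14.6 and 14.2 CPM in droughted WT and 20.5 and 20.3 CPM in droughted OE. AT1G47980 stood at -6.84, a fitted value that rests on 0 counts in the watered OE libraries. WRKY53, a factor of leaf senescence, was not called in watered plants. It had 47.9 and 42 CPM in watered WT, 36.2 and 38.2 CPM in watered OE, 46.8 and 53.6 CPM in droughted WT and 78.7 and 75.3 CPM in droughted OE, a difference of -0.89 (edgeR adjusted p = 0.0447).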

How the results depend on the processing

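The 75 called genes kept their sign in each fit without 1 library, but the median of 11 of 33 lists changed sign in at least 1 such fit; the largest of these was flavonoid and anthocyanin, from -0.36 to 0.12. With RLE factors 71 genes were called in watered plants, and all 71 were among the 75. DESeq2 called 171 (116 higher, 55 lower; 69 of the 75) and the fit without a filter 166 (all 75). The fit of the 4 watered libraries alone called 21 (19 of the 75; 1 was not tested). Without 1 library the count ranged from 16, without the first watered OE library, to 438, without the second watered WT library, where 136 were higher and 302 lower. For the difference between conditions, 31 genes were called, 146 by DESeq2, 202 without a filter, and between 2 and 326 without 1 library. The causes were not tested. Where a group keeps 1 library, that library is assumed to vary like the other groups. The replicate numbers do not pair the libraries (correlation of same-numbered deviations -0.08 to 0.06); with the replicate block 75 genes were called in watered plants, 61 of them shared, and 44 for the difference. With 2 libraries a group, changes under 2-fold rest on few residual degrees of freedom, and genes near 3 counts give no reliable fold.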

Other observations

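Several further lists had no call by edgeR or DESeq2 in watered plants. Aliphatic glucosinolate genes had a median log2 fold change of -0.17, with 11 of 12 below 0. Of the 12, 2 were lower at an unadjusted p under 0.05 (16.7% against 4.23% of all genes). MYB76, an activator of that pathway, had 5.07 and 4.71 CPM in WT and 3.36 and 2.29 CPM in OE (edgeR adjusted p = 0.325). Flavonoid and anthocyanin genes had a median of -0.36 with 0 at an unadjusted p under 0.05, and of 0.12 without the first watered WT library. The 20 circadian clock genes had a median of 0.12, and of -0.04 without the second watered OE library. Of the 20, 1 was higher (5% against 5.99% of all genes) and 2 lower (10% against 4.23%) at an unadjusted p under 0.05. Among these, ELF4, an evening gene, had 110 and 109 CPM in WT and 154 and 132 CPM in OE, and PRR5 had 75.1 and 76.2 CPM in WT and 62.8 and 57.8 CPM in OE.

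Proline and raffinose metabolism had 4 of 10 genes higher at an unadjusted p under 0.05 (40% against 5.99% of all genes). The list median was 0.055, with 6 of the 10 above 0. GOLS3, a galactinol synthase known as a cold-induced target of the CBF factors, had 1.27 and 0.385 CPM in WT and 2.07 and 2.92 CPM in OE (1.58 ± 0.46, edgeR adjusted p = 0.191), while P5CS1, the main proline synthesis gene of water stress, stood at 0.02. The 8 reference genes had a median of 0.04 with 0 at an unadjusted p under 0.05.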
